A study of Mus musculus and Homo sapiens with 30 samples.

Results

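The transcription factor p53 and 9 genes that it is known to activate, among them Cdkn1a, were followed in breast cell lines kept in medium conditioned by adipocytes. The 10 mouse genes (Trp53, Cdkn1a, Mdm2, Ccng1, Trp53inp1, Sesn1, Phlda3, Zmat3, Gtse1 and Aen) were matched by symbol to 10 of the 56980 gene IDs of the mouse table. The human genes CDKN1A (ENSG00000124762), MDM2 (ENSG00000135679) and CCNG1 (ENSG00000113328) were matched by ID to 3 of the 61552 IDs of the human table. All 10 mouse genes and all 3 human genes passed the filter on low counts in every line in which they were tested. RNA-seq counts were deposited for 30 libraries of 3 lines. E0771 is a mouse mammary cancer line, NMuMG a line from the mouse mammary gland with epithelial features, and SkBr3 a human breast cancer line; the labels file all of them under breast cancer and give no p53 genotype. Cells had 36 h of growth and 16 h of treatment with control medium, which held no secretome, or with medium of which 50% was the secretome of lean or of obese inguinal adipocytes, whose species was not given. NMuMG medium was also supplemented with insulin and glucose, and each medium had 3 libraries in E0771, 3 in NMuMG and 4 in SkBr3.

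The p53 protein is held at a low level by Mdm2, a ubiquitin ligase that marks it for degradation and is itself a p53 target, so that the pathway contains a negative feedback loop. Stress signals such as DNA damage stabilise p53 through its protein rather than its mRNA, and the protein then binds a pair of decamers, 10-base units, near its target genes. Targets arrest the cell cycle (Cdkn1a, which encodes the cyclin-dependent kinase inhibitor p21), promote apoptosis, repair DNA or adjust metabolism. Cdkn1a is also induced by factors other than p53, and p53 protein was not measured in these data.

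Promoter sequence was examined because these genes are grouped by a factor that binds DNA. RefSeq windows (GRCm38.p6) of the 250 bases before the annotated starts were matched for 8 of the 10 mouse genes, in 12 windows; Trp53inp1 and Zmat3 were not matched. The counts were made on another build, so the positions serve only to place the sequences. Of the 12 windows, 6 held a p53 decamer, in 6 of the 8 genes, against 7.13% of 32851 windows of the same length. The other motifs searched, on both strands, were the CCAAT box (CCAAT, in 9 of the 12 windows against 33.8%) and the GC box (GGGCGG, 6 against 32.7%). The cell cycle homology region (CHR, TTTGAA) was in 1 window against 16.0%, the TATA box (TATAAA) in 1 against 12.4% and the antioxidant response element (TGACNNNGC) in 1, that of Trp53, against 10.2%. A match is a run of letters and not a shown binding site, and the genes were grouped as known p53 targets, so a higher share of decamers is a description. Windows are shown for Cdkn1a, Mdm2 and Ccng1, which were among the genes that rose with lean secretome in both mouse lines. They are also shown for Sesn1 and Gtse1, which fell in both. The window of Phlda3, which also rose in both, held GC boxes and no decamer and is not shown. For Cdkn1a and Sesn1 the start shown is the one whose window held a decamer, and the window of the other start held none. The windows shown read 5′ to 3′ in the direction of the gene, and capitals mark the matches to these motifs. The Cdkn1a window is chr17:29090729-29090978 (plus strand), that of Mdm2 chr10:117710759-117711008 (minus strand), that of Ccng1 chr11:40755287-40755536 (minus strand), that of the downstream of both listed Sesn1 starts chr10:41887189-41887438 (plus strand), and that of the upstream of both listed Gtse1 starts chr15:85859457-85859706 (plus strand).
Cdkn1a: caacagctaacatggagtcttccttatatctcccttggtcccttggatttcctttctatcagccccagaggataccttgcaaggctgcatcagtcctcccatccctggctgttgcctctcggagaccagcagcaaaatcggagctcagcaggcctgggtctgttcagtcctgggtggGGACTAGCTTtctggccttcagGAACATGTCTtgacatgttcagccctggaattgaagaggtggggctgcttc
Mdm2: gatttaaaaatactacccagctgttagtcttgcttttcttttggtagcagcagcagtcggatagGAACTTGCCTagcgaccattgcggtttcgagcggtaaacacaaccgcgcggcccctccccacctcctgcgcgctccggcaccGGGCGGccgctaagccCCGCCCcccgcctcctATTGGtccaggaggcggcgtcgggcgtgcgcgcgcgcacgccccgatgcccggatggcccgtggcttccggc
Ccng1: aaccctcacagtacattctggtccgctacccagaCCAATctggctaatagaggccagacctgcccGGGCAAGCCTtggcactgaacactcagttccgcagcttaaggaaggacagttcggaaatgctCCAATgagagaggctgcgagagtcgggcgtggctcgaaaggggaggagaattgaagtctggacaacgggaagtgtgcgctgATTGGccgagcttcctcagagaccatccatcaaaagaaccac
Sesn1: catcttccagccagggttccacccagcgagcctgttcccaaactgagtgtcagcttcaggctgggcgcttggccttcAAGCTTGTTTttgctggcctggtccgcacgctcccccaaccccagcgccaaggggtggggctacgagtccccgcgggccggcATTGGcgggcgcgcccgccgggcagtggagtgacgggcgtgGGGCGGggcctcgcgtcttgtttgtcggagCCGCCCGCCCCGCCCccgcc
Gtse1: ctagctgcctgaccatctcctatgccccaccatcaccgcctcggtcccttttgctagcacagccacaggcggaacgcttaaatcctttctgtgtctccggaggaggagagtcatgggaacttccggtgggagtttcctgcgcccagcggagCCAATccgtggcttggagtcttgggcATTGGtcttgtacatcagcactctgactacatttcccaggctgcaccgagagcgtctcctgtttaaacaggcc

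The Cdkn1a window held 2 decamers, GGACTAGCTT and GAACATGTCT. The second, at chr17:29090928-29090937, lies 2832 bases before the downstream Cdkn1a start and is followed without a gap by tgacatgttc, which departs from the decamer at 1 of 10 bases. Mdm2 held GAACTTGCCT, Ccng1 GGGCAAGCCT and Sesn1 AAGCTTGTTT. The Gtse1 window held 2 CCAAT boxes and no decamer, which says only that those letters are not in that window.

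Total counts ranged from 22929035 to 31094119 per library in E0771, from 23966897 to 29686456 in NMuMG and from 18479433 to 29195499 in SkBr3. Levels below are CPM, counts scaled to a common library total, with SD over libraries; they are not scaled to gene length, so levels are compared within a gene only. Of the markers of mammary epithelium, E0771 held Krt8 (5817 to 7657 counts per library), while Epcam (0 to 3 counts), Krt18 (0 to 1) and Cdh1 (1 to 8) were near or at 0; all 4 were present in NMuMG. The summed level of 4 mesenchymal markers in E0771 was 2186 to 2436 CPM with lean, 3329 to 3631 with obese secretome and 3764 to 3905 in control medium. The same sum in NMuMG was 1767 to 1798 CPM with lean, 1880 to 1930 with obese secretome and 1743 to 1842 in control medium. The summed level of 6 adipocyte markers was at most 1.61 CPM in E0771. In NMuMG it was 2.04 to 2.19 CPM with lean secretome, 0.372 to 1.08 with obese secretome and 0.393 to 0.728 in control medium, mostly from Cidec, while Lep had 0 counts in every mouse library and Adipoq at most 3. Markers of immune cells summed to at most 0.334 CPM. The part of these markers in the results was not tested.

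With lean rather than obese secretome, Cdkn1a doubled in E0771, and 7 of the 10 genes rose, 2 fell and 1 did not pass the test. Over all 13813 tested genes 52.7% were called at an adjusted p under 0.05 (25.8% higher, 26.9% lower), so a call by itself was common in this line. The median log2 fold change of the 10 genes was 0.21, against 0.0035 over all tested genes. All tests of genes are edgeR quasi-likelihood F tests with Benjamini-Hochberg adjustment over all tested genes.

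Among genes that act on the cell cycle, Cdkn1a stood at 67.7, 65.8 and 73.7 CPM in the lean libraries, 38.4, 31.1 and 31.9 in the obese libraries and 27.7, 26.4 and 27.3 in the control libraries. Every lean library lay above every obese library, and every obese library above every control library. Lean over obese, the log2 fold change was 1.03 (adjusted p = 2.17e-11, SE 0.067), or 2.04-fold, the 688th largest absolute change among the tested genes. Gtse1, a G2 and S phase protein that binds p53 and moves it out of the nucleus, stood at 75.8, 82.6 and 80.9 CPM with lean and 96.4, 95.7 and 93.9 with obese secretome. Its lean libraries all lay below its obese libraries, and it fell by 0.26 on the log2 scale (adjusted p = 2.51e-05, SE 0.0451).

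**Figure D1:**
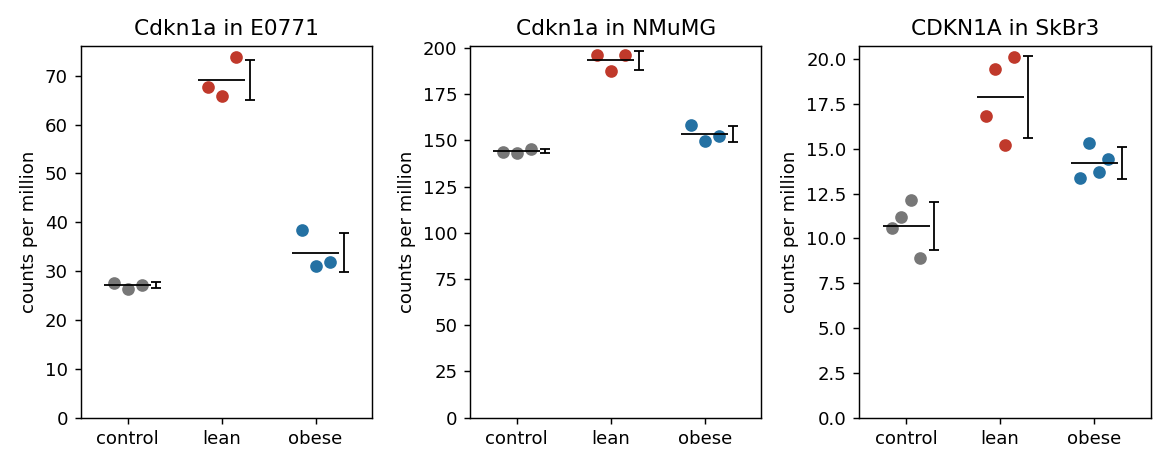
Level of mouse Cdkn1a in E0771 and NMuMG and of human CDKN1A in SkBr3, in CPM on axes that start at 0. Points are libraries (3 per medium in the mouse lines, 4 in SkBr3), horizontal lines are means and bars are SD. The lean mean is highest and the control mean lowest in each line, and no lean library overlaps a control library; 1 SkBr3 lean library lies below the highest obese library.

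Of the genes that feed back on p53, Mdm2 stood at 90.5, 89.7 and 94.3 CPM in the lean libraries of E0771 and 74.3, 69.4 and 69.2 in the obese libraries, a log2 fold change of 0.36 (adjusted p = 6.13e-07, SE 0.0472). Ccng1, the gene of cyclin G1, which recruits a phosphatase to Mdm2, stood at 60.7, 59.8 and 55.3 CPM with lean and 51.7, 49.0 and 52.9 with obese secretome, a change of 0.19 (adjusted p = 0.00965, SE 0.0592). Trp53 itself stood at 251, 253 and 268 CPM with lean and 229.9, 228 and 223 with obese secretome, a change of 0.17 (adjusted p = 0.000464, SE 0.038). In all 3 genes the lean libraries lay above the obese libraries, and the change in each was smaller than that of Cdkn1a.

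Of the genes linked to cell death and RNA, Aen, a nuclease that takes part in apoptosis, stood at 68.8, 68.6 and 77.3 CPM with lean and 58.8, 55.0 and 54.3 with obese secretome and rose by 0.35 (adjusted p = 1.5e-05, SE 0.0571). Phlda3, which restrains the kinase Akt at the membrane, stood at 44.6, 46.8 and 48.8 CPM with lean and 41.3, 37.1 and 36.0 with obese secretome and rose by 0.29 (adjusted p = 0.000434, SE 0.063). Zmat3, an RNA-binding zinc finger protein, stood at 40.8, 38.4 and 42.3 CPM with lean and 38.3, 33.1 and 31.6 with obese secretome and rose by 0.23 (adjusted p = 0.0045, SE 0.0665). Lean and obese libraries did not overlap in these 3 genes, although the lowest lean Zmat3 library and the highest obese one lay close together. Trp53inp1, a stress protein of the nucleus and of autophagy, was barely detected in E0771 (4 to 21 counts per library). Its levels of 0.501, 0.218 and 0.515 CPM with lean and 0.824, 0.826 and 0.496 with obese secretome overlapped, and its log2 fold change of -0.78 (adjusted p = 0.119, SE 0.414) did not pass.

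Sesn1, a stress protein that restrains the growth kinase complex mTORC1, went the other way. It stood at 20.2, 19.2 and 21.8 CPM in the lean libraries and 26.2, 30.4 and 25.8 in the obese libraries of E0771, with every lean library below every obese one. Its log2 fold change was -0.43 (adjusted p = 1.85e-05, SE 0.0726). Lean and obese libraries did not overlap in 9 of the 10 genes, against 60.3% of all tested genes. Without obese replicate 2 Ccng1 no longer passed (adjusted p = 0.069), and without obese replicate 3 Zmat3 did not (adjusted p = 0.0529). In Cdkn1a and Sesn1 another annotated transcript overlaps the gene (AC167363.2 on the opposite strand and 9930024M15Rik on the same strand), and with the strand setting of the counting not given, reads of the pair cannot be told apart.

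Against control medium, which shares the lean libraries with the comparison above, lean secretome gave the same split in E0771: 7 of the 10 genes were called higher and 2 lower, where 56.3% of tested genes were called (27.3% higher, 29.0% lower). Cdkn1a was 2.53-fold higher, with a mean of 69.1 ± 4.13 CPM against 27.1 ± 0.627 (SD, n = 3) and a log2 fold change of 1.34 (adjusted p = 3.31e-13, SE 0.0687). Mdm2 rose by 0.38 (adjusted p = 2.61e-07, SE 0.0473), from 72.0, 67.6 and 70.0 CPM in the control libraries. Ccng1 rose by 0.35 (adjusted p = 1.91e-05), from control libraries at 41.7, 46.0 and 48.9 CPM that lay below every lean library. Phlda3 rose by 0.38 (adjusted p = 1.66e-05) from 38.4, 34.3 and 34.2 CPM. Aen rose by 0.34 (adjusted p = 1.49e-05) from 59.3, 52.3 and 56.3 CPM. Zmat3 rose by 0.24 (adjusted p = 0.00331) from 32.9, 34.3 and 34.9 CPM. In these genes no lean library overlapped a control library; the same held in 9 of the 10 genes, against 61.4% of all tested genes. Trp53 rose by 0.12 (adjusted p = 0.01) from 237, 228 and 240.1 CPM, a call that was lost without control replicate 2 (adjusted p = 0.0768). Sesn1 fell by 0.55 (adjusted p = 5.09e-07) from 29.1, 30.3 and 29.6 CPM. Gtse1 fell by 0.21 (adjusted p = 0.000302) from 90.1, 91.8 and 93.2 CPM. Trp53inp1, at 0.584, 0.634 and 0.174 CPM in control medium, did not pass (-0.21 on the log2 scale, adjusted p = 0.712, SE 0.445). The control medium held no secretome, so the presence of secretome and its lean source cannot be told apart here.

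In NMuMG the lean secretome raised 6 of the 10 genes over the obese secretome and lowered 2, where 35.0% of 15014 tested genes were called (17.6% higher, 17.4% lower). Trp53inp1 (0.46) and Mdm2 (0.43) had larger log2 fold changes than Cdkn1a (0.32), and Trp53 and Aen did not pass. The median log2 fold change of the 10 genes was 0.13, against -0.0023 over all tested genes, and the libraries did not overlap in 8 of them, against 45.2% of all genes.

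Mdm2 stood at 329, 311 and 331 CPM in the lean libraries of NMuMG, 248, 232 and 233 in the obese libraries and 216, 219 and 222 in the control libraries. The 3 media did not overlap, and Mdm2 rose from obese to lean by 0.43 (adjusted p = 9.1e-12, SE 0.0352) on the log2 scale, or 1.35-fold. Ccng1 stood at 671, 715 and 738 CPM with lean and 602, 570.2 and 608 with obese secretome, a change of 0.24 (adjusted p = 1.94e-06, SE 0.0356). Trp53 stood at 293, 296 and 289 CPM with lean and 306, 299.9 and 296 with obese secretome, levels that overlapped, with a change of -0.05 (adjusted p = 0.23, SE 0.0322).

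Cdkn1a stood at 196, 187 and 196 CPM with lean, 158, 149.9 and 152 with obese secretome and 144, 143 and 145 in control medium of NMuMG. As in E0771 the libraries of the 3 media were in the order control, obese, lean without overlap, but the rise was smaller, 0.32 (adjusted p = 5.76e-09, SE 0.0353), or 1.25-fold. Gtse1 stood at 121, 126 and 114 CPM with lean and 142, 136 and 133 with obese secretome, with every lean library lower, and changed by -0.19 (adjusted p = 0.000243, SE 0.0404).

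Trp53inp1 was well expressed in NMuMG, at 83.2, 84.0 and 99.3 CPM with lean and 59.5, 67.2 and 65.2 with obese secretome. All lean libraries were higher and the change was 0.46 (adjusted p = 0.000545, SE 0.0755). Zmat3 stood at 112, 104 and 102 CPM with lean and 99.3, 95.0 and 89.6 with obese secretome and rose by 0.15 (adjusted p = 0.00601, SE 0.0434). Phlda3 stood at 145, 144 and 134 CPM with lean and 133, 127 and 128 with obese secretome and rose by 0.11 (adjusted p = 0.0243, SE 0.0395), with its lowest lean and highest obese library nearly touching. Aen stood at 157, 158 and 152 CPM with lean and 156, 154 and 159 with obese secretome, levels that overlapped (-0.02 on the log2 scale, adjusted p = 0.73, SE 0.0351). Sesn1 was low in NMuMG, at 6.02, 6.26 and 4.54 CPM with lean and 7.39, 7.44 and 7.14 with obese secretome, and changed by -0.39 (adjusted p = 0.0144, SE 0.126) with no overlap. DESeq2 did not call Phlda3 (adjusted p = 0.0853) or Sesn1 (adjusted p = 0.078). Zmat3 did not pass without lean replicate 1 (adjusted p = 0.0762) or obese replicate 3 (adjusted p = 0.0703), Sesn1 not without lean replicate 3 (adjusted p = 0.128). Phlda3 did not pass when 1 of these libraries was left out, named by medium and replicate with the adjusted p in parentheses: lean 1 (0.124), lean 2 (0.105), obese 2 (0.0904) and obese 3 (0.0812).

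Against control medium in NMuMG, 7 genes were called higher and 2 lower with lean secretome, where 38.2% of tested genes were called (19.1% higher, 19.1% lower). The libraries did not overlap in 9 of the 10 genes, against 48.0% of all genes. Mdm2 rose by 0.57 (adjusted p = 5.04e-15, SE 0.0352), or 1.48-fold, and Cdkn1a by 0.43 (adjusted p = 5.06e-12, SE 0.0352), or 1.34-fold. Ccng1 rose by 0.31 (adjusted p = 1.63e-08) from 578, 549 and 591 CPM. Trp53inp1 rose by 0.31 (adjusted p = 0.00551) from 71.8, 65.6 and 77.0 CPM, and Zmat3 by 0.27 (adjusted p = 3.64e-06) from 88.1, 85.5 and 89.8 CPM. The control libraries of these 5 genes lay below every lean library. Phlda3 rose by 0.13 (adjusted p = 0.00662) from 128, 134 and 125 CPM. Aen rose by 0.09 (adjusted p = 0.0346) from 148, 148 and 143 CPM. Sesn1 fell by 0.48 (adjusted p = 0.00219) from 7.34, 9.31 and 6.97 CPM, and Gtse1 by 0.10 (adjusted p = 0.041) from 131, 133 and 126 CPM with overlapping libraries. Trp53, at 283, 280.4 and 281 CPM in control medium, did not pass (0.06 on the log2 scale, adjusted p = 0.145, SE 0.0322). With no filter on low counts the call of Aen was lost (adjusted p = 0.0728), and those of Aen and Gtse1 were lost under DESeq2 (adjusted p = 0.0797 and 0.151). Leaving out 1 library at a time, named here by medium and replicate with the adjusted p in parentheses, Aen was lost without control 1 (0.0727), control 3 (0.137), lean 1 (0.103) and lean 2 (0.144), Gtse1 without control 1 (0.111), control 2 (0.156), lean 1 (0.0623), lean 3 (0.253) and obese 3 (0.0516) and Phlda3 without control 3 (0.0526) and lean 1 (0.0503).

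**Figure D2:**
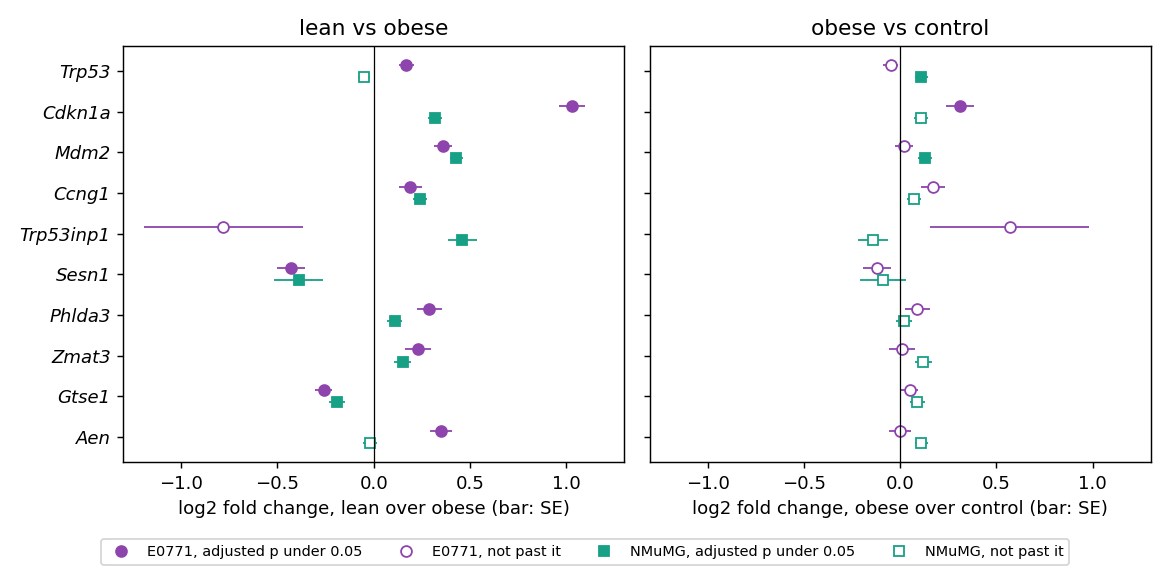
Log2 fold change of the 10 genes with lean over obese secretome and with obese secretome over control medium, with SE bars; circles are E0771, squares NMuMG, and filled symbols passed an adjusted p of 0.05. With lean over obese secretome Cdkn1a lies at 1.03 in E0771 and 0.32 in NMuMG, and Sesn1 and Gtse1 lie below 0 in both lines; with obese secretome over control most symbols are open and near 0.

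The difference between the lines was tested as the interaction of line and medium, over all 18 mouse libraries together, and 34.2% of 16529 genes were called for lean over obese (18.8% higher and 15.5% lower in E0771). Of the 10 genes, 5 were called. The rise of Cdkn1a was larger in E0771 than in NMuMG by 0.72 (adjusted p = 2.14e-10, SE 0.0719) on the log2 scale. Aen differed by 0.38 (adjusted p = 6.89e-06, SE 0.0644), Trp53 by 0.24 (adjusted p = 0.000127, SE 0.0491) and Phlda3 by 0.19 (adjusted p = 0.0338, SE 0.0718), each with the larger change in E0771. Trp53inp1 differed by -1.21 (adjusted p = 0.0234, SE 0.409), with few counts in E0771. Mdm2 was not shown to differ (-0.05 on the log2 scale, adjusted p = 0.517, SE 0.0564), nor were Sesn1 (-0.03 on the log2 scale, adjusted p = 0.973, SE 0.146) or Gtse1 (-0.05 on the log2 scale, adjusted p = 0.563, SE 0.0609). The remaining genes, Ccng1 and Zmat3, differed by -0.04 and 0.10 and did not pass. For lean over control, where 34.5% of genes were called (19.4% higher, 15.1% lower), Cdkn1a differed by 0.94 (adjusted p = 5.82e-13, SE 0.0732), Aen by 0.28 (adjusted p = 0.000592, SE 0.0644) and Phlda3 by 0.27 (adjusted p = 0.00249, SE 0.072), all larger in E0771. Mdm2 differed by -0.16 (adjusted p = 0.0217, SE 0.0565), with the larger rise in NMuMG. For obese over control edgeR called 0 of the 10 genes and no other tool was run; 2, Trp53 and Cdkn1a, had an unadjusted p under 0.05. Over all genes 1.69% were called there (1.06% higher, 0.623% lower), 279 genes, and 2176 had an unadjusted p under 0.05. When 1 library was left out (adjusted p in parentheses), the lean over obese difference was lost for Phlda3, besides DESeq2 size factors in edgeR (0.0546) and no filter on low counts (0.0565), without E0771 lean 3 (0.082), E0771 obese 2 (0.085), E0771 obese 3 (0.127), NMuMG lean 3 (0.204) and NMuMG obese 1 (0.087) and for Trp53inp1 without E0771 lean 2 (0.0898), E0771 obese 1 (0.0937) and E0771 obese 2 (0.0946). The lean over control difference in Mdm2 was lost without E0771 control 1 (0.0595), E0771 lean 2 (0.0593), NMuMG control 1 (0.0577) and NMuMG lean 1 (0.0576).

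Levels in control medium differed between the lines in all 10 genes, where 80.5% of genes were called (37.1% higher and 43.4% lower in E0771). In 9 genes E0771 was lower. Ccng1 was 13.6-fold lower in E0771 (-3.77 on the log2 scale, adjusted p = 8.33e-36, SE 0.0519), and Cdkn1a 5.74-fold lower (-2.52 on the log2 scale, adjusted p = 1.81e-33, SE 0.0547). Phlda3 was 3.90-fold, Mdm2 3.39-fold, Aen 2.83-fold and Zmat3 2.79-fold lower. Gtse1 was 1.53-fold and Trp53 itself 1.29-fold lower. Trp53inp1 was 159-fold lower, with 4 to 17 counts in the control libraries of E0771. Sesn1 was the exception, at 29.1, 30.3 and 29.6 CPM in E0771 against 7.34, 9.31 and 6.97 in NMuMG, 3.50-fold higher in E0771 (1.81 on the log2 scale, adjusted p = 1.08e-20, SE 0.0939). The control libraries of the lines did not overlap in any of the 10 genes. The share of all genes without overlap was not counted for this comparison, so this says nothing particular about the 10 genes. With lean secretome Cdkn1a in E0771, at a mean of 69.1 ± 4.13 CPM, was still below its level in NMuMG control medium (144 ± 1.03). Line and growth medium cannot be told apart in this comparison, nor can fewer expressing cells and less RNA per cell in bulk libraries.

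**Figure D3:**
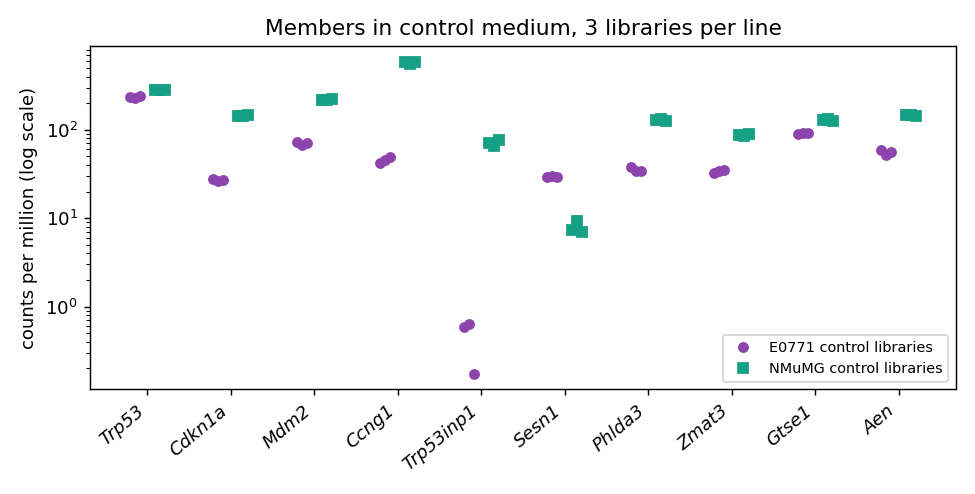
Level of the 10 genes in control medium, in CPM on a log scale, with 1 point per library (3 E0771 circles and 3 NMuMG squares per gene). The E0771 points lie below the NMuMG points in 9 genes and above them in Sesn1; Trp53inp1 in E0771 lies below 1 CPM.

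In SkBr3 the lean secretome raised CDKN1A over both other media, while MDM2 did not pass. Of the 3 genes, CDKN1A was called higher and CCNG1 lower between lean and obese secretome, where 44.1% of 14874 tested genes were called (21.1% higher, 23.1% lower, and 34.9% without overlap). CDKN1A alone was called against control medium with lean secretome, where 48.8% of genes were called (23.7% higher, 25.1% lower, and 41.8% without overlap). It was also the one called with obese secretome, where 1.16% were (0.605% higher, 0.551% lower, and 10.9% without overlap). CDKN1A stood at 16.8, 19.5, 15.2 and 20.1 CPM in the lean libraries, 13.4, 15.4, 13.7 and 14.4 in the obese libraries and 10.6, 11.2, 12.1 and 8.93 in the control libraries. All control libraries were lower than all others, and 1 lean library lay just below the highest obese library. The log2 fold change of lean over control was 0.71 (adjusted p = 2.45e-06, SE 0.0956), or 1.64-fold, that of lean over obese 0.31 (adjusted p = 0.00882, SE 0.0913) and that of obese over control 0.41 (adjusted p = 0.0409, SE 0.0971). The lean over control and lean over obese calls passed in all 18 alternatives each. The obese over control call was lost in 7 of the 12 fits that left out 1 library, named by medium and replicate with the adjusted p in parentheses: control 1 (0.123), control 2 (0.0981), control 4 (0.177), obese 1 (0.0748), obese 2 (0.069), obese 3 (0.0682) and obese 4 (0.169).

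MDM2 stood at 80.3, 80.4, 82.4 and 78.5 CPM with lean, 81.8, 76.8, 72.9 and 74.5 with obese secretome and 78.7, 73.8, 72.5 and 69.1 in control medium of SkBr3, with overlap between every pair of media. Its log2 fold change was 0.04 (adjusted p = 0.493, SE 0.0444) for lean over obese and 0.09 (adjusted p = 0.1, SE 0.0448) for lean over control, and the latter passed without control replicate 1 (adjusted p = 0.0473). CCNG1 stood at 46.2, 45.7, 45.7 and 42.1 CPM with lean, 52.2, 45.0, 51.4 and 47.6 with obese secretome and 49.5, 46.5, 46.5 and 41.2 in control medium. It changed by -0.16 (adjusted p = 0.0263, SE 0.057) for lean over obese with overlapping libraries, and DESeq2 did not call it (adjusted p = 0.0769). Leaving out lean replicate 4 gave CCNG1 an adjusted p of 0.0915. Leaving out obese replicate 1 gave 0.0932, and obese replicate 3 0.0984. The human and mouse tables were fitted separately, so the lines of the 2 species were not compared by a test.

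The obese secretome changed few of these genes against control medium, in comparisons that share their control libraries with those above. In E0771 only Cdkn1a of the 10 genes was called, where 2.61% of genes were (1.21% higher, 1.40% lower), with a log2 fold change of 0.31 (adjusted p = 0.019, SE 0.0721). The call was lost without control replicate 1 (adjusted p = 0.0927), control replicate 2 (0.112) or obese replicate 1 (0.15). Ccng1 (0.17 on the log2 scale, adjusted p = 0.164, SE 0.0606) and Gtse1 (0.05 on the log2 scale, adjusted p = 0.646, SE 0.0451) had obese libraries above every control library and did not pass; with Cdkn1a, 3 of the 10 genes had libraries without overlap, against 21.5% of all genes. In NMuMG Trp53 (0.11 on the log2 scale, adjusted p = 0.0358, SE 0.0322) and Mdm2 (0.13 on the log2 scale, adjusted p = 0.0187, SE 0.0355) were called, where 5.01% of genes were (2.34% higher, 2.66% lower). Cdkn1a (0.11 on the log2 scale, adjusted p = 0.0785, SE 0.0356) and Aen (0.11 on the log2 scale, adjusted p = 0.0605, SE 0.0352) did not pass although their obese libraries lay above every control library, so that 4 of the 10 genes had libraries without overlap, against 21.3% of all genes. When 1 library was left out (adjusted p in parentheses), Trp53 was lost without control 1 (0.129), control 2 (0.104), control 3 (0.107), obese 1 (0.169) and obese 3 (0.0579), and with the replicate block (0.0524), and Mdm2 without control 1 (0.136), control 2 (0.0578) and obese 1 (0.164).

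A further list of 35 known p53 targets was divided by role; it was written from general knowledge, with the results for the 10 genes above in view. In E0771 32 of them were tested, and with lean over obese secretome 15 rose and 8 fell (71.9% called, against 52.7% of all genes), with a median log2 fold change of 0.24. In NMuMG 34 were tested, and 23 rose and 1 fell (70.6% called, against 35.0%), with a median of 0.23. With lean secretome against control 18 rose and 6 fell in E0771 (75.0% called, against 56.3% of all genes), and 21 rose and 2 fell in NMuMG (67.6%, against 38.2%).

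Among the apoptosis genes of E0771, 4 of 8 tested rose and 2 fell (75% called, against 52.7% of all genes, 25.8% higher and 26.9% lower). Tnfrsf10b, a death receptor, stood at 57.9 ± 2.09 CPM with lean and 33.3 ± 2.71 with obese secretome (SD, n = 3), a log2 fold change of 0.80 (adjusted p = 1.4e-10, SE 0.0607). Pmaip1 (Noxa), a BH3-only protein, rose by 0.89 (adjusted p = 0.000144, SE 0.176) at a low level, 4.98 ± 0.319 against 2.67 ± 0.63 CPM. Bbc3 (Puma), another BH3-only protein, fell by 0.59 (adjusted p = 1.69e-05, SE 0.0973), and the death receptor Fas, at under 1 CPM with either secretome, had a change of -1.58 (adjusted p = 0.00279, SE 0.423). In NMuMG 9 of 10 apoptosis genes rose and none fell (90% called, against 35.0% of all genes, 17.6% higher and 17.4% lower). Perp, a desmosomal protein, rose by 0.50 (adjusted p = 3.09e-10, SE 0.0475) and Tnfrsf10b by 0.47 (adjusted p = 1.2e-09, SE 0.048). Perp had 0 counts in all 9 E0771 libraries, where 3 counts, taken as the floor, are worth 0.0965 to 0.131 CPM.

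Of the 5 tested arrest genes, 4 rose in E0771 and 3 in NMuMG, and none fell in either line. The shares called were 80% in E0771, against 52.7% of all genes, and 60% in NMuMG, against 35.0%. All genes gave 25.8% higher and 26.9% lower in E0771 and 17.6% higher and 17.4% lower in NMuMG. Plk2, a polo-like kinase, stood at 98.8 ± 9.63 and 62.7 ± 1.03 CPM with lean and obese secretome in E0771 (0.65 on the log2 scale, adjusted p = 2.55e-09, SE 0.058). In NMuMG it stood at 219 ± 9.45 and 141 ± 10.6 CPM (0.62 on the log2 scale, adjusted p = 3.89e-11, SE 0.0444). Plk3 rose by 0.59 (adjusted p = 5.44e-06) in E0771 and by 0.40 (adjusted p = 0.000961) in NMuMG. The antiproliferative gene Btg2 rose by 0.57 (adjusted p = 1.01e-08, SE 0.0647) in NMuMG and by 1.58 (adjusted p = 0.00192, SE 0.403) in E0771, where it stood at under 1 CPM. Of 6 repair genes, 1 rose and 2 fell in E0771 and 2 rose in NMuMG, shares of 50.0% and 33.3% that were near those of all genes (52.7% and 35.0%). Rrm2b, a ribonucleotide reductase subunit, rose by 0.57 (adjusted p = 3.26e-06, SE 0.084) in E0771, and the polymerase gene Polk by 0.34 (adjusted p = 6.92e-07, SE 0.0485) in NMuMG.

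Of 13 targets in metabolism and stress, 6 rose and 4 fell in E0771, and 9 rose and 1 fell in NMuMG. That was 76.9% called in each line, against 52.7% of all genes in E0771 and 35.0% in NMuMG. Higher calls made up 25.8% of all genes and lower calls 26.9% in E0771, with 17.6% and 17.4% in NMuMG. Tigar, a phosphatase that lowers glycolytic flux, rose in E0771 by 0.67 (adjusted p = 3.63e-10, SE 0.0539). Sesn2, the stress-induced relative of Sesn1, stood at 23.0 ± 2.22 CPM with lean and 44.7 ± 3.07 with obese secretome in E0771 and fell by 0.96 (adjusted p = 6.19e-11, SE 0.0698). In NMuMG Sesn2 rose by 0.25 (adjusted p = 0.000197, SE 0.0505). Gls2, a glutaminase, rose in E0771 by 0.85 (adjusted p = 0.000236, SE 0.149) and had a change of -0.67 (adjusted p = 0.000166, SE 0.135) in NMuMG. Ephx1, an epoxide hydrolase, stood at 305 ± 26.4 and 108 ± 18.5 CPM in NMuMG, the largest rise of the list there (1.48 on the log2 scale, adjusted p = 0.000157, SE 0.127). Gdf15, a stress cytokine, rose by 0.70 (adjusted p = 1.66e-09, SE 0.0726) in NMuMG and changed by -0.27 (adjusted p = 0.0404, SE 0.107) in E0771. That E0771 call was lost under DESeq2 (adjusted p = 0.154) and when 1 of these libraries was left out: lean 2 (0.219), obese 1 (0.0742), obese 2 (0.114) and obese 3 (0.0586). The differences between the lines in these listed genes were not tested.

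**Figure D4:**
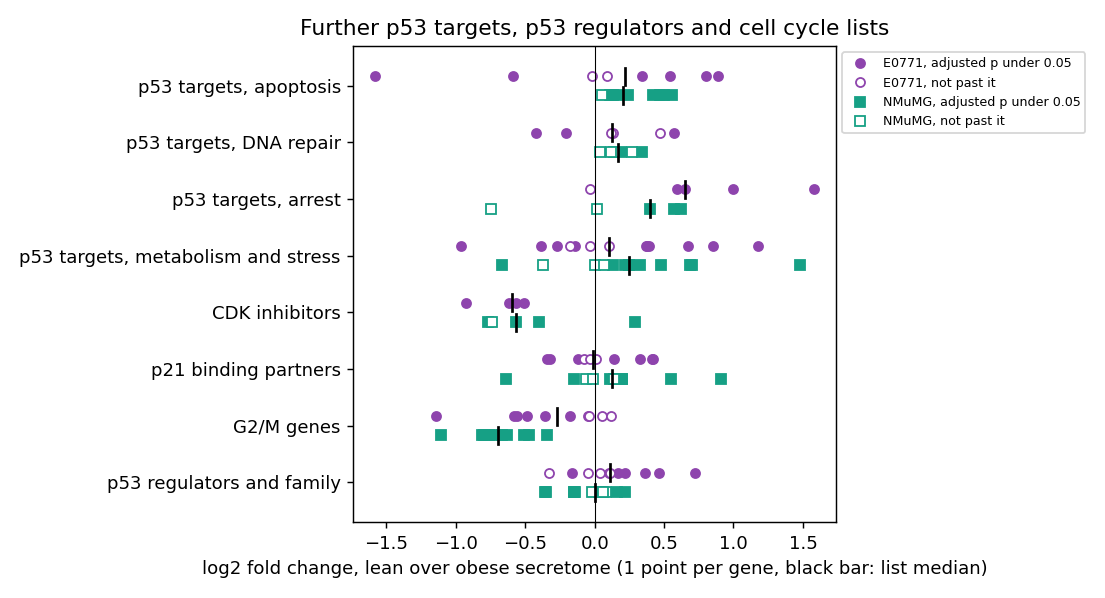
Log2 fold change of lean over obese secretome for each tested gene of the lists by role, with E0771 as circles, NMuMG as squares, filled symbols for an adjusted p under 0.05 and a black bar at the median of each list. The arrest list lies mostly above 0 in both lines, and the 5 listed cyclin-dependent kinase inhibitors and the G2/M genes lie mostly below 0.

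The other cyclin-dependent kinase inhibitors were given as a list of 5, without Cdkn2a, which is described with the regulators of p53. In E0771 all 4 tested fell with lean over obese secretome, with a median log2 fold change of -0.60. Cdkn1c changed by -0.93 (adjusted p = 4.02e-05, SE 0.166), Cdkn2d by -0.62 (adjusted p = 1.69e-07, SE 0.0745) and Cdkn2c by -0.57 (adjusted p = 1.06e-08, SE 0.0574). Cdkn1b (p27) also fell, by 0.51 in E0771 and by 0.57 in NMuMG. In NMuMG 3 of 5 fell and Cdkn2b, which had 0 counts in all E0771 libraries, rose by 0.29 (adjusted p = 3.29e-05, SE 0.0526). Over all genes 25.8% were called higher and 26.9% lower in E0771, and 17.6% higher and 17.4% lower in NMuMG.

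Of 10 cyclins, kinases and other partners that p21 binds, 4 rose and 3 fell in E0771 and 5 rose and 2 fell in NMuMG. All genes gave 25.8% higher and 26.9% lower in E0771 and 17.6% higher and 17.4% lower in NMuMG. Pcna, the sliding clamp of DNA replication, rose in E0771 (0.42 on the log2 scale, adjusted p = 1.36e-09, SE 0.037). Ccne1 rose in both lines, by 0.41 (adjusted p = 7.23e-08) in E0771 and 0.55 (adjusted p = 5.07e-10) in NMuMG. Ccna2 fell in both, by 0.32 and 0.64. In NMuMG Ccnd2 stood at 351 ± 19.3 CPM with lean and 186 ± 8.61 with obese secretome and rose by 0.91 (adjusted p = 4.15e-17, SE 0.0392).

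Of 10 genes of the G2 phase and mitosis, in which Gtse1 is also expressed, 6 fell in E0771 (median -0.27) and all 10 in NMuMG (median -0.70), and none rose. Over all genes 26.9% fell in E0771 and 17.4% in NMuMG, and the 60.0% called in E0771 is near the 52.7% of all genes. Ccnb2 had the largest fall in both lines, -1.14 (adjusted p = 1.81e-05, SE 0.104) in E0771 and -1.11 (adjusted p = 6.89e-11, SE 0.0599) in NMuMG. Plk1 fell by 0.56 and 0.81. The fall of Gtse1 was smaller than that of either gene, and the part of cell cycle phase in the levels of Gtse1 and Cdkn1a was not tested.

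Of the regulators of p53, 6 of 11 tested rose and 1 fell in E0771 (63.6% called, against 52.7% of all genes), and 2 of 12 rose and 5 fell in NMuMG (58.3%, against 35.0%). In E0771 the kinase genes Hipk2 (0.72 on the log2 scale, adjusted p = 3.25e-07, SE 0.09) and Chek1 (0.46 on the log2 scale, adjusted p = 1.63e-07, SE 0.0547) and the deubiquitinase Usp7 (0.36 on the log2 scale, adjusted p = 1.7e-08, SE 0.0374) rose most. In NMuMG Chek1 (-0.36 on the log2 scale, adjusted p = 3.11e-05, SE 0.0652) and the damage kinase Atr (-0.35 on the log2 scale, adjusted p = 2.48e-06, SE 0.0522) fell. Cdkn2a, which encodes Arf, a protein that blocks Mdm2, and the kinase inhibitor p16, had 0 counts in all 9 E0771 libraries and 438 to 637 counts in the NMuMG libraries. In NMuMG it changed by 0.22 (adjusted p = 0.0149, SE 0.071), a call lost under DESeq2 (adjusted p = 0.0839) and without obese replicate 3 (adjusted p = 0.0826).

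The genes whose level followed that of Cdkn1a most closely were ranked by Pearson r of log2 CPM over the 9 libraries of each line, as a description. The 9 libraries share their grouping by medium, so many genes can have a high r. In E0771, over 9937 genes, these were Abcc4 (r = 0.998), Hmox1 (0.997), Srxn1 (0.997), Srd5a1 (0.997) and Mast2 (0.996). Hmox1, the gene of heme oxygenase 1, stood at 87.4 CPM in control, 1656 with lean and 167 with obese secretome, and Srxn1, the gene of sulfiredoxin, at 145 CPM in control, 691 with lean and 213 with obese secretome. In NMuMG, over 10669 genes, they were Plk2 (0.997), Abcc4 (0.996), 1110008P14Rik (0.995), Epha4 (0.995) and Irs2 (0.995). Abcc4, an export pump for organic anions, was in both groups of 5. It stood at 99.4 CPM in control, 259 with lean and 121 with obese secretome in E0771 and at 210.0 CPM in control, 531 with lean and 263 with obese secretome in NMuMG.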

How the data were processed

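Raw counts per Ensembl gene ID were deposited by the authors in a human and a mouse table. The submitters' processing notes name cutadapt 1.16, STAR 2.7.9a, featureCounts 1.6.3 and the mouse build GRCm39; their settings, the strand setting of the counting, the annotation and the human build are not given in the sources used here. Mouse symbols came from a GENCODE M21 table on GRCm38 and matched 52073 of 56980 IDs. Promoters came from RefSeq on GRCm38.p6.

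Each line was fitted over its 3 media in edgeR 4.0.16 (R 4.3.3; limma 3.58.1) with filterByExpr, TMM factors and a robust quasi-likelihood F test, and p-values were adjusted over all tested genes by the Benjamini-Hochberg method. The lines were compared in 1 model of the 18 mouse libraries, with 6 groups. Genes past an adjusted p of 0.05 were called. The SE is the absolute log2 fold change over the root of F. DESeq2 1.42.0, its size factors in edgeR, 2 other filters, fits of the compared groups alone, a replicate block and leaving out each library were the alternatives. On simulated counts with 200 genes changed 1.5-fold between lean and obese, 78.0% were recovered in E0771, 75.0% in NMuMG and 73.5% in SkBr3. Of the calls made there, 6.59% were false in E0771, 1.96% in NMuMG and 5.16% in SkBr3. Far more genes were called in the data than were changed here, and most members changed by less than 1.5-fold. The simulation therefore does not give the power for the members. Biological coefficients of variation were 0.0468 (E0771), 0.0388 (NMuMG) and 0.0543 (SkBr3), and every pair of replicates differed by more than counting error. The labels do not say that replicates were separate cultures, so p-values measure the spread between these libraries.

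The members and lists were chosen with earlier results of these data known. All members are named, and from each list up to 3 of the largest called rises and falls, of which 1 is not reported here; for likeness to Cdkn1a, the 5 genes with the highest r among those whose mean log2 CPM reached 2.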

Additional observations from a re-analysis of the deposited data

Results flagged for a closer look

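The CCNG1 level of lean replicate 4 in SkBr3, 42.1 CPM, lay far from the other 3 lean libraries for the range of that group. It was the only such library among the 9 groups of SkBr3 examined, 3 genes in 3 media, and chance alone marks about 1 group in 20. Without this library CCNG1 did not pass between lean and obese secretome (adjusted p = 0.0915, edgeR quasi-likelihood).

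Of the 30 differences between E0771 and NMuMG that were tested as an interaction over the 10 genes and 3 contrasts, 9 passed: 5 for lean over obese, 4 for lean over control and 0 for obese over control. Over all genes 34.2%, 34.5% and 1.69% were called in these contrasts. For lean over obese secretome, the log2 fold change was larger in E0771 by 0.24 in Trp53, 0.72 in Cdkn1a, 0.19 in Phlda3 and 0.38 in Aen. It was lower in E0771 in Trp53inp1 (-1.21), which had few counts in that line. For lean secretome over control it was larger in E0771 by 0.94 in Cdkn1a, 0.27 in Phlda3 and 0.28 in Aen, and lower in E0771 in Mdm2 (-0.16).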

How the results depend on the processing

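Of 1899 recomputed values of single members, 1798 kept their direction and their side of the threshold, 63 no longer passed, 3 newly passed and 35 changed sign, none of them among the values that passed. Of 3174 values of called genes in the further lists 3004 still passed, 170 did not and 0 changed sign. Leaving out 1 library, the members called ranged from 0 to 1 for obese over control in E0771, from 0 to 3 in NMuMG and from 0 to 1 in SkBr3. They ranged from 1 to 2 for lean over control and from 1 to 2 for lean over obese in SkBr3, and from 3 to 5 for the lean over obese difference between lines, lowest without E0771 obese replicate 2. Over all alternatives, members called in NMuMG ranged from 6 to 9 for lean over control and from 6 to 8 for lean over obese. In E0771 the range was 8 to 9 for each, and the lean over control difference between lines had 3 to 4. DESeq2 called 1 SkBr3 member between lean and obese, not CCNG1. Same-numbered replicates showed little shared deviation, with correlations from -0.0942 to 0.11 in E0771, where 1 of 9 pairs exceeded 0.1. The correlations were -0.0285 to 0.025 in NMuMG and -0.0452 to 0.0523 in SkBr3. The main fits did not pair libraries by number, and these correlations cannot exclude a batch shared by number. A fit with the replicate block called 1 member for obese over control in NMuMG, where Trp53 had an adjusted p of 0.0524, and moved no other count of members by over 1.5 times. Counts over all genes moved most for obese over control: 360 in E0771 (79 to 626), 752 in NMuMG (384 to 893), 172 in SkBr3 (20 to 849) and 279 for the difference between lines (149 to 428).

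Values that changed sign were near 0 or from few counts. Aen in E0771, obese over control, was 0.01 with DESeq2, 0 with DESeq2 size factors and 0 with no filter. Leaving out 1 library, obese over control in E0771 ranged from -0.05 to 0.04 in Aen, -0.02 to 0.05 in Mdm2 and -0.08 to 0.07 in Zmat3. In NMuMG it ranged from 0 to 0.05 in Phlda3 and -0.17 to 0.05 in Sesn1. Lean over obese in NMuMG ranged from -0.03 to 0 in Aen, and lean over control in E0771 from -0.55 to 0.08 in Trp53inp1. The difference between lines ranged from -0.20 to 0.03 (lean over control), -0.18 to 0.06 (lean over obese) and -0.16 to 0.06 (obese over control) in Sesn1. It ranged from -0.06 to 0.04 in Zmat3 (lean over control), -0.07 to 0.01 in Ccng1 (lean over obese) and -0.05 to 0 in Gtse1 (obese over control). The cause was not tested.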
